A study of Mus musculus with 7 samples.

Results

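The cytosolic ribosomal proteins are the protein parts of the ribosomes that translate messages in the cytosol. Members were the probe sets of a single gene symbol that begins with Rpl or Rps and a digit, or that is Rplp0, Rplp1, Rplp2 or Rpsa. Rps6k kinases and pseudogene symbols were left out, and a gene with several probe sets was represented by the brightest over the 7 arrays. This gave 50 genes of the 18194 genes with a single symbol. Of these, 45 reached log2 5 on at least 2 arrays and stood among the 8203 genes tested.

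The cells were OT-I cells, CD8 T cells carrying a transgenic receptor for an ovalbumin peptide, taken from Ly5.1 mice of the C57BL/6 strain. Before transfer all of them were CD44lo, that is naive, and carried CFSE, a dye diluted at each division. All groups were sorted as CD8+ Ly5.1+ cells from host mice. In RIP-OVAhi hosts, whose ovalbumin is driven by the rat insulin promoter and which serve as a model of deletional tolerance, divided cells were taken after 60 h from the sacral and pancreatic lymph nodes, with 20 mice pooled for each array (n = 2). In OCS/LPS hosts, primed with splenocytes coated in ovalbumin together with lipopolysaccharide, divided cells were taken after 60 h from the spleen, with 10 mice pooled (n = 2). In Rag-/- hosts, which lack lymphocytes and in which transferred cells divide because of the lymphopenia, divided cells were taken after 5 days from the spleen, with 10 mice pooled (n = 1). Naive cells were undivided cells taken after 60 h from the spleen of B6 hosts without the antigen, with 10 mice pooled (n = 2). Divided cells had gone through at least 2 divisions. Tissue and group cannot be told apart for RIP-OVAhi, nor time and group for Rag.

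Each ribosome joins a small subunit, which reads the message, to a large subunit, which forms the peptide bonds, and most of their proteins are present in a single copy. Messages of ribosomal proteins usually start with a run of pyrimidines, the 5' TOP element, through which the mTORC1 kinase and the RNA-binding protein Larp1 control their translation, so that protein output can change while the amount of message does not. T cells that leave the naive state are known to grow and to make new ribosomes before and during their first divisions. Arrays measure the message only.

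Values are GCRMA expression values on the log2 scale, and a difference is the mean of a group minus the mean of the group it is set against. A member was called when its adjusted p in limma, a linear model with a moderated spread, was under 0.05 over all genes tested. All 7 CD8 T cell marker genes on the array were detected on every array, with a summed level of 15.10 to 15.31. Transcripts of MHC class II and of myeloid cells were carried by the spleen arrays and not by the lymph node arrays. Of 5 MHC class II and 8 myeloid markers, 0 reached log2 5 on the RIP-OVAhi arrays. On the spleen arrays 3 or 4 of the MHC class II markers and 2 to 4 of the myeloid markers did. Their summed levels were 5.73 to 5.92 and 5.82 to 5.99 on the RIP-OVAhi arrays, and 7.69 to 9.17 and 8.24 to 9.94 on the spleen arrays. B cell markers summed to 8.47 and 8.98 in RIP-OVAhi cells, 9.30 and 9.70 in OCS/LPS cells and 7.32 in Rag cells, against 7.59 and 8.59 in naive, and 1 of 3 tested was called higher than naive in both antigen-driven groups. Cd22, an inhibitory receptor of B cells, read 6.53 and 7.03 in RIP-OVAhi cells and 8.20 and 8.55 in OCS/LPS cells. In Rag cells Cd22 read 4.28, against 4.04 and 3.59 in naive. Ms4a1 of the same list was below naive in RIP-OVAhi (3.74 and 3.98 against 4.73 and 5.72) and read 4.92 and 6.67 in OCS/LPS. Cd79b read 6.84 to 8.43 over the arrays, while Cd79a and Pax5 stayed at 2.24 or less on every array. Of 4 tested plasma cell and immunoglobulin markers 2 were lower than naive in RIP-OVAhi and 2 were higher in OCS/LPS, with summed levels of 12.13 and 12.20 in RIP-OVAhi cells, 12.82 and 12.84 in OCS/LPS cells and 12.04 in Rag cells, against 12.45 and 12.46 in naive. Jchain, the chain that joins secreted antibodies, read 1.65 and 2.28 in RIP-OVAhi cells, 8.01 and 8.45 in OCS/LPS cells and 1.65 in Rag cells, against 7.07 and 6.93 in naive. Igha of the same list had a lower mean than naive in OCS/LPS, where Jchain was higher. Igha read 4.89 and 7.52 in OCS/LPS cells and 3.40 and 3.41 in RIP-OVAhi cells, against 7.28 and 8.51 in naive. Csf1r, the receptor of macrophage growth factor, read 8.51 on the Rag array and 2.44 to 2.56 on the others. The naive arrays differed more from each other than the other pairs, with 347 genes over 2-fold apart against 28 for RIP-OVAhi and 31 for OCS/LPS. For Gapdh, control probe sets at the 3' end read above those at the 5' end, a gap that grows as RNA is degraded or less fully copied. The gap was 2.08 and 2.03 on the RIP-OVAhi arrays, 1.85 and 1.89 on the OCS/LPS arrays and 2.21 on the Rag array, against 2.59 and 2.43 on the naive arrays. The part of these differences in the results below was not tested.

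Most ribosomal protein probe sets read near the top of the scale and moved little. The 45 tested members averaged between 6.69 and 15.24, with a median of 14.18, and no member passed 15.31 on any array, where the brightest probe set of an array read 15.73 to 15.82. A mean of log2 14 or more was found for 26 members (57.8%) and for 51 of all 8203 genes (0.622%). Over the 7 arrays the members spanned a median of 0.35 log2 units, against 0.81 for all genes tested, and 30 of them spanned less than 0.5. The steadiest were Rpl13a, Rpl4 and Rps20, each with a range of 0.11, then Rps2 (0.12) and Rps29 (0.13). Brightness does not rank transcripts between probe sets, and whether readings this high can still follow a change in RNA in full was not tested.

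Against naive cells, a small number of members fell and none rose. In RIP-OVAhi cells 4 of 45 members were called lower (8.89%), where 11.6% of all genes tested were called lower, and 0 were called higher, where 18.1% of all genes were. In OCS/LPS cells 7 members were called lower (15.6%; background 12.3%) and 0 higher (background 20.5%). In Rag cells 0 members were called lower (background 0.585%) and 0 higher (background 2.15%). At an unadjusted p under 0.05 in limma the members lower numbered 8 in RIP-OVAhi cells, 12 in OCS/LPS cells and 2 in Rag, with 0 higher in each, where 16.9%, 17.3% and 6.73% of all genes were lower by that measure. The shares called lower lie on either side of the background, so the falls do not set the members apart from other genes by number. All 3 comparisons use the same naive arrays. A lower level here can come from less message in each cell or from fewer cells that hold it, which cannot be told apart in RNA from a population.

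The members leaned below zero as a list. The median difference was -0.07 in RIP-OVAhi cells, -0.15 in OCS/LPS cells and -0.11 in Rag, beside 0.06, 0.08 and 0.04 for all genes tested. A difference under 0 was found for 34 members in RIP-OVAhi (75.6%; all genes 44.9%), for 39 in OCS/LPS (86.7%; all genes 43.4%) and for 39 in Rag (86.7%; all genes 45.3%). Arrays were also centred on their own medians over all probe sets. Those medians were 2.97 to 3.08, below the log2 5 asked of a tested gene, so this step aligns low readings. It shifts these differences by 0.06 to 0.07 and left medians of -0.01, -0.08 and -0.05 for the members. Of the members 24, 32 and 28 were then under 0. The medians of all genes tested became 0.12, 0.14 and 0.10, so members and other genes shifted together. GCRMA brings all arrays to nearly the same distribution, so a rise in message shared by most genes would not show.

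**Figure D1:**
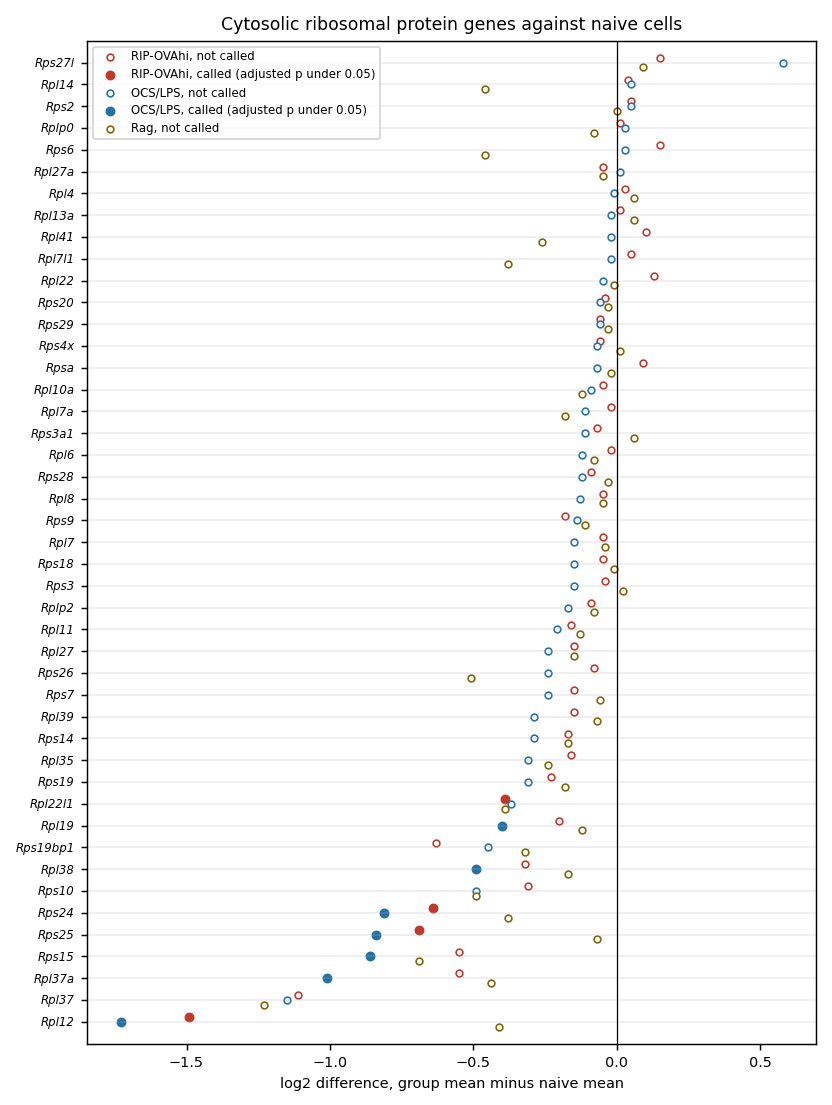
Log2 difference from the naive mean (x axis) for each of the 45 tested members (rows, sorted by the OCS/LPS difference), with RIP-OVAhi in red, OCS/LPS in blue and Rag in brown, and filled circles for called members. Most circles lie between -0.5 and 0.2, and the filled ones run from Rpl12 at -1.73 to Rpl22l1 at -0.39.

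Rpl12, a large subunit protein that binds ribosomal RNA at the base of the stalk where translation factors dock, had the largest fall. Its probe set read 8.09 and 7.86 on the RIP-OVAhi arrays, 7.62 and 7.85 on the OCS/LPS arrays and 9.06 on the Rag array, against 9.84 and 9.10 on the naive arrays. All RIP-OVAhi and OCS/LPS arrays, the groups driven by antigen, lay more than 1 log2 unit below the lower naive array, and the Rag array lay just under that array. The difference from naive was -1.49 in RIP-OVAhi (SE 0.26, adjusted p = 0.00953 in limma), -1.73 in OCS/LPS (SE 0.26, adjusted p = 0.00519) and -0.41 in Rag (SE 0.32, adjusted p = 0.557). On the linear scale the level was 0.355 times that of naive in RIP-OVAhi and 0.301 times in OCS/LPS. The RIP-OVAhi call was lost without either RIP-OVAhi array, and the OCS/LPS call without OCS/LPS array 1, with adjusted p-values up to 0.0874 and 0.0514 over the alternatives. With no filter on low values the RIP-OVAhi call was lost as well.

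Rps25, a small subunit protein that several viral internal ribosome entry sites need in human and yeast cells, fell in the same pair of groups. It read 9.55 and 9.58 in RIP-OVAhi cells, 9.37 and 9.46 in OCS/LPS cells and 10.18 in Rag cells, against 10.35 and 10.17 in naive. The antigen-driven arrays lay below all others, and the Rag array lay between the naive arrays. The difference from naive was -0.69 in RIP-OVAhi (SE 0.12, adjusted p = 0.0108) and -0.84 in OCS/LPS (SE 0.12, adjusted p = 0.00502). The OCS/LPS call of Rps25 held under each of the 15 alternatives, with adjusted p-values of 0.00379 to 0.0471. The RIP-OVAhi call was lost without either RIP-OVAhi array.

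Rps24, a small subunit protein needed to mature 18S ribosomal RNA and mutated in Diamond-Blackfan anaemia in humans, read 13.45 and 13.70 in RIP-OVAhi cells, 13.44 and 13.37 in OCS/LPS cells and 13.84 in Rag cells, against 14.11 and 14.33 in naive. On this probe set naive lay above every divided sample. Rps24 fell by 0.64 in RIP-OVAhi (SE 0.15, adjusted p = 0.0232) and by 0.81 in OCS/LPS (SE 0.15, adjusted p = 0.00991), while Rag differed by -0.38 (SE 0.18, adjusted p = 0.336). The RIP-OVAhi call was lost when any single RIP-OVAhi or OCS/LPS array was left out, and the OCS/LPS call without either OCS/LPS array. With no filter or with only the 2 groups in the model the RIP-OVAhi call was lost too. Of the 11 Diamond-Blackfan anaemia genes on the array, 10 were tested, and Rps24 was the only call against naive on the chosen probe sets. That is 10% lower in RIP-OVAhi and in OCS/LPS, where 11.6% and 12.3% of all genes were. A further probe set of Rpl35, also of this list, was called lower in OCS/LPS (-0.45, adjusted p = 0.041 in limma).

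Rpl22l1, a paralog that can take the place of Rpl22 in the large subunit, was the remaining call in RIP-OVAhi cells. It read 13.38 and 13.30 in RIP-OVAhi cells, 13.34 and 13.38 in OCS/LPS cells and 13.33 in Rag cells, against 13.72 and 13.73 in naive. All divided groups lay at nearly the same level below the naive arrays, with differences of -0.39 in RIP-OVAhi (SE 0.11, adjusted p = 0.0492), -0.37 in OCS/LPS (adjusted p = 0.054) and -0.39 in Rag (adjusted p = 0.225). The call held under 7 of 15 alternatives. It was lost when any single RIP-OVAhi or OCS/LPS array was left out, after centring, without _x_at and _s_at probe sets and with only the 2 groups in the model. Its partner Rpl22, which developing T cells need in the mouse, read 14.58 and 14.65 in RIP-OVAhi cells, 14.47 and 14.42 in OCS/LPS cells and 14.48 in Rag cells, against 14.50 and 14.48 in naive, and was not called in any comparison on this probe set.

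In OCS/LPS cells 4 further members fell. Rpl37a, a zinc-binding large subunit protein, read 12.89 and 12.96 in OCS/LPS against 13.68 and 14.19 in naive (-1.01, SE 0.19, adjusted p = 0.0119). Rps15, which small subunits need to leave the nucleus, read 13.62 and 13.34 in OCS/LPS against 14.09 and 14.59 in naive (-0.86, SE 0.20, adjusted p = 0.022). No array of one group overlapped the other for these genes. Rpl38, which mouse embryos need to translate a set of Hox messages, read 13.83 and 13.69 in OCS/LPS against 14.20 and 14.30 in naive (-0.49, SE 0.12, adjusted p = 0.0279). Rpl19, whose protein helps to bridge the subunits, read 13.74 and 13.67 in OCS/LPS against 14.05 and 14.17 in naive (-0.40, SE 0.12, adjusted p = 0.0464). RIP-OVAhi arrays lay between these groups for Rpl37a (13.30 and 13.47), Rps15 (13.79 on both), Rpl38 (13.90 and 13.95) and Rpl19 (13.95 and 13.87), with differences from naive of -0.55, -0.55, -0.32 and -0.20 that did not pass the test. The Rpl37a call was lost without either OCS/LPS array, those of Rps15 and Rpl38 when any single RIP-OVAhi or OCS/LPS array was left out, and that of Rpl19 without any of these or naive array 2. With only the 2 groups in the model those of Rps15, Rpl38 and Rpl19 were lost, with no filter those of Rpl37a and Rps15, and after centring that of Rpl19, which held under 7 of 15 alternatives.

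**Figure D2:**
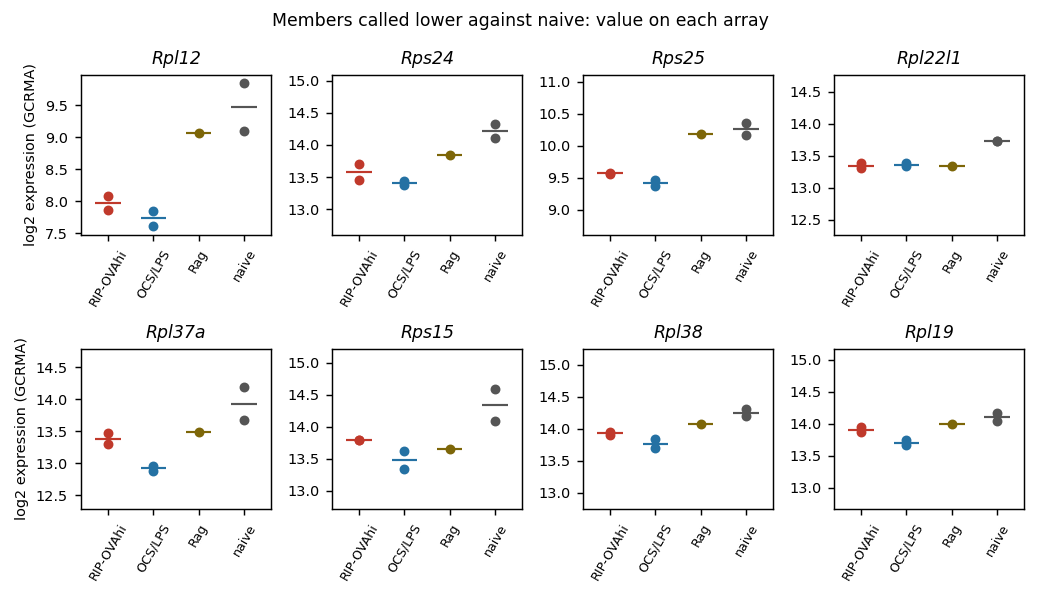
Log2 expression (y axis) on each of the 7 arrays (points) with the group mean (line) for the 8 members called lower than naive in RIP-OVAhi or OCS/LPS, and each panel spans the same number of log2 units. RIP-OVAhi and OCS/LPS points lie below both naive points in every panel, and the Rag point of Rps25 (10.18) lies with the naive ones.

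Rpl12, Rps25 and Rps24 were called lower in both antigen-driven groups, which is 75% of the 4 RIP-OVAhi calls and 42.9% of the 7 OCS/LPS calls. By subunit, 1 of 20 large subunit members and 2 of 19 tested small subunit members were lower in RIP-OVAhi (5% and 10.5%, where 11.6% of all genes were), and 4 and 3 in OCS/LPS (20% and 15.8%, where 12.3% were). The median differences of the large subunit were -0.05 in RIP-OVAhi cells, -0.14 in OCS/LPS cells and -0.13 in Rag, and those of the small subunit were -0.08 in RIP-OVAhi cells, -0.15 in OCS/LPS cells and -0.06 in Rag. After centring, the RIP-OVAhi median of the large subunit was 0 and the Rag median of the small subunit 0.01. The medians of all genes tested were then 0.12 in RIP-OVAhi and 0.10 in Rag.

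The 5' ends of the called genes are shown because the TOP element lies there and is the sequence by which these messages are usually controlled together. Each line gives 40 bases before and 15 bases from the first listed start on, 5' to 3' on the + strand, from RefSeq promoters of GRCm38.p6. Capitals mark a pyrimidine tract, defined as a C followed by at least 4 further C or T that begins within 10 bases of the start. The tract shown for Rpl19, 5 bases from base -5 on, lies before the start. Rps24 and Rpl19 have a second listed start, not shown, where Rps24 has no tract and Rpl19 has a tract of 9 bases. Rplp2, a stalk protein that was not called, is added for comparison.
Rpl12 (chr2:32961672-32961726): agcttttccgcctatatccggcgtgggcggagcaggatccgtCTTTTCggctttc
Rps25 (chr9:44407674-44407728): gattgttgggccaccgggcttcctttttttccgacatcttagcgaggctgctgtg
Rps24 (chr14:24490638-24490692): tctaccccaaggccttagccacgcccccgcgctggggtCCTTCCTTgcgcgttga
Rpl22l1 (chr3:28805468-28805522): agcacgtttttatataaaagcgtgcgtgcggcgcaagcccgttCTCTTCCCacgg
Rpl37a (chr1:72711220-72711274): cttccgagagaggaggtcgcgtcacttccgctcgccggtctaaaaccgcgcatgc
Rps15 (chr10:80292391-80292445): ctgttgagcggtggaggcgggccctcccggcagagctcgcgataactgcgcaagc
Rpl38 (chr11:114668540-114668594): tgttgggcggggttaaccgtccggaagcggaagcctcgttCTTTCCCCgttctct
Rpl19 (chr11:98026670-98026724): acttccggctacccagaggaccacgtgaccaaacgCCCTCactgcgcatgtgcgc
Rplp2 (chr7:141447611-141447665): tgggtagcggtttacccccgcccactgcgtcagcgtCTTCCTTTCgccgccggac

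Of the 44 members matched in the promoter table, 27 had such a tract at a listed start (61.4%), against 34.4% of all 27025 genes in the table. Among the 8 members called lower the share was 62.5%, and among the 32 other tested members it was 59.4%. The windows of Rps25, Rps15 and Rpl37a had none by this definition. Each of them holds a run of C and T further upstream, which was not counted. The letters CCGGAAG, a core to which ETS factors such as Gabpa can bind, were found on either strand within the 300 bases of 21 members (47.7%), against 9.93% of all genes. AAGATGGC, the core of the Yy1 motif, was found in 9.09% against 3.19%, and CACGTG, the E-box that Myc can bind, in 9.09% against 8.09%. Among the 8 called members CCGGAAG was found in 37.5%, and among the other tested members in 53.1%.

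The stalk proteins Rplp0 and Rplp2, which recruit elongation factors, were nearly flat. Rplp0 read 14.93 and 15.00 in RIP-OVAhi cells, 15.04 and 14.93 in OCS/LPS cells and 14.88 in Rag cells, against 14.95 and 14.96 in naive. Rplp2 read 15.00 and 15.01 in RIP-OVAhi cells, 14.97 and 14.87 in OCS/LPS cells and 15.01 in Rag cells, against 15.06 and 15.12 in naive. Rpsa, a small subunit protein also known as the laminin receptor, read 14.49 and 14.57 in RIP-OVAhi cells, 14.44 and 14.30 in OCS/LPS cells and 14.42 in Rag cells, against 14.42 and 14.46 in naive. None of the 3 genes was called in any comparison, and their differences from naive lay between -0.17 and 0.09.

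Rps6, whose protein is the classic substrate of the S6 kinases downstream of mTORC1, read 10.91 and 11.00 in RIP-OVAhi cells, 10.85 and 10.84 in OCS/LPS cells and 10.35 in Rag cells, against 10.60 and 11.02 in naive. The Rag array was the lowest, and its difference from naive was -0.46 (SE 0.21, adjusted p = 0.316). Rpl11, which as part of the 5S particle can bind Mdm2, differed from naive by -0.16 in RIP-OVAhi cells, -0.21 in OCS/LPS cells and -0.13 in Rag, with all divided arrays below both naive arrays and no call. Rps14 and Rps19, whose loss causes anaemias in humans, differed by -0.17 and -0.23 in RIP-OVAhi and by -0.29 and -0.31 in OCS/LPS, again below both naive arrays without a call. The X-linked members Rps4x and Rpl39 were not called either, with differences from naive of -0.29 to 0.01.

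The paralogs differed among themselves. Rps27l, the paralog of Rps27 that p53 can induce, read 10.19 and 10.32 in RIP-OVAhi cells, 10.69 and 10.67 in OCS/LPS cells and 10.19 in Rag cells, against 9.72 and 10.48 in naive. OCS/LPS lay above the other arrays, and the difference from naive was 0.58 (SE 0.25, adjusted p = 0.128), the highest of any member. Rpl7l1 differed from naive by 0.05, -0.02 and -0.38 in RIP-OVAhi, OCS/LPS and Rag, without a call. Rpl39l, Rpl3l and Rps4l stayed under log2 5 on every array, at 4.42 to 4.65, 2.74 to 2.83 and 2.12 to 2.21. Rps27 and Rps16, whose messages most cells make, were likewise near background at 2.98 to 3.04 and 2.09 to 2.15, so these probe sets gave no usable reading of them. Rps19bp1 meets the naming rule but encodes a binding partner of Rps19. It read 7.03 and 7.07 in RIP-OVAhi cells, 7.11 and 7.35 in OCS/LPS cells and 7.36 in Rag cells, against 7.27 and 8.09 in naive, and was not called.

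Members that varied most included some whose naive arrays disagreed. Rpl12 had a range of 2.22 over the arrays and Rpl37 a range of 1.97. Rpl37 read 9.11 and 9.16 in RIP-OVAhi cells, 9.16 and 9.02 in OCS/LPS cells and 9.01 in Rag cells, against 9.50 and 10.98 in naive. Every divided array lay below both naive arrays, yet the naive arrays were 1.48 apart and none of its differences from naive was called, at -1.11 in RIP-OVAhi cells, -1.15 in OCS/LPS cells and -1.23 in Rag. Rpl14 read 9.66 and 10.80 on the naive arrays, which enclosed all divided arrays. Rpl37a (range 1.30), Rps15 (1.24) and Rpl14 (1.14) followed in range.

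Between RIP-OVAhi and OCS/LPS cells at 60 h no member passed the test. Of 45 members 0 were called in limma, where 1.61% of all genes were called higher and 1.3% lower, and 0 members had an unadjusted p under 0.05. The median difference was 0.09, beside -0.05 for all genes, with 9 members (20%) under 0, where 58.1% of all genes lay under 0. Both RIP-OVAhi arrays lay above both OCS/LPS arrays for 19 members and below for 2, with backgrounds of 23.5% and 34% over all genes. The largest differences were 0.46 for Rpl37a (SE 0.19, adjusted p = 0.315), -0.43 for Rps27l (SE 0.25, adjusted p = 0.478), 0.30 for Rps15 (SE 0.20, adjusted p = 0.529) and 0.24 for Rpl12 (SE 0.26, adjusted p = 0.731). The difference does not use the naive arrays, but its SE and p draw on the spread within all groups, the naive pair included. With only the 2 groups in the model 416 of all genes were called and 0 members. No member was called under any other alternative run either.

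Set against the single Rag array, whose spread was taken to equal that of the other groups, Rps25 was lower in both antigen-driven groups, with a difference of -0.62 in RIP-OVAhi (SE 0.15, adjusted p = 0.0441) and of -0.77 in OCS/LPS (SE 0.15, adjusted p = 0.0242). Rpl12 was lower in OCS/LPS (-1.33, SE 0.32, adjusted p = 0.0386), and in RIP-OVAhi it differed by -1.09 (SE 0.32, adjusted p = 0.0694). These were the calls of 45 members, 1 in RIP-OVAhi cells and 2 in OCS/LPS cells, with 6.9% of all genes called lower in each comparison and 9.84% and 11.2% called higher. Rps6 was 0.61 higher in RIP-OVAhi than in Rag (SE 0.21, adjusted p = 0.0994), Rpl14 differed from Rag by 0.50 in RIP-OVAhi cells and 0.51 in OCS/LPS cells, and Rpl37a by -0.56 in OCS/LPS (adjusted p = 0.156), without a call. Each of these calls was lost when any single RIP-OVAhi or OCS/LPS array was left out, the RIP-OVAhi call of Rps25 also after centring, and that of Rpl12 with no filter. With only the 2 groups in the model, 2 arrays against 1, no gene at all was called, so that run cannot decide on these members. Csf1r, given above, was high on the same Rag array, and its part in these calls was not tested.

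Against naive, the largest Rag differences were -1.23 for Rpl37 (SE 0.55, adjusted p = 0.311), -0.69 for Rps15 (SE 0.24, adjusted p = 0.225), -0.51 for Rps26 (SE 0.23, adjusted p = 0.308) and -0.49 for Rps10 (SE 0.23, adjusted p = 0.335). Without naive array 1, a comparison of 1 array with 1 array, 8 members were called lower in Rag, and 10 in RIP-OVAhi cells and 14 in OCS/LPS cells, where the calls over all genes also grew, to 8.56%, 16.2% and 16.2% lower. Without naive array 2 the members called lower were 4 in RIP-OVAhi cells and 8 in OCS/LPS cells, beside 3 and 2 called higher, and 0 in Rag. Over all genes the shares lower were then 15.8%, 17% and 0.731%, and those higher in RIP-OVAhi and OCS/LPS were 24.1% and 27.5%. Naive array 2 read above naive array 1 for Rpl37, Rps15, Rpl37a, Rps26 and Rps10, by 1.48, 0.50, 0.52, 0.47 and 0.53.

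On the chosen probe sets the calls came from members with a mean below log2 14. Several lay just below that cut, with means of 13.99 for Rpl38, 13.92 for Rpl19, 13.84 for Rps15 and 13.75 for Rps24. Of the 26 members with a mean of log2 14 or more 0 were called against naive in any group, and at an unadjusted p under 0.05 the count was 0 in RIP-OVAhi cells, 2 in OCS/LPS cells and 0 in Rag. Their median differences were -0.05, -0.12 and -0.04. After centring these were 0.01, -0.06 and 0.02, beside 0.12, 0.14 and 0.10 for all genes tested. The 19 members below log2 14 held all calls, with medians of -0.20, -0.37 and -0.38. Of these 19, 21.1% were lower in RIP-OVAhi and 36.8% in OCS/LPS, where 11.6% and 12.3% of all genes were. Other probe sets of members above the cut were called lower in OCS/LPS. Among them were 1 of Rpl35 with a mean of 14.18 (-0.45, adjusted p = 0.041 in limma) and 1 of Rps9 (-0.53, adjusted p = 0.0456). The 25 other genes at log2 14 or more had medians of 0.10, 0.15 and 0.09, with 3 called higher in RIP-OVAhi cells and 3 in OCS/LPS cells (12% each, below the 18.1% and 20.5% of all genes).

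**Figure D3:**
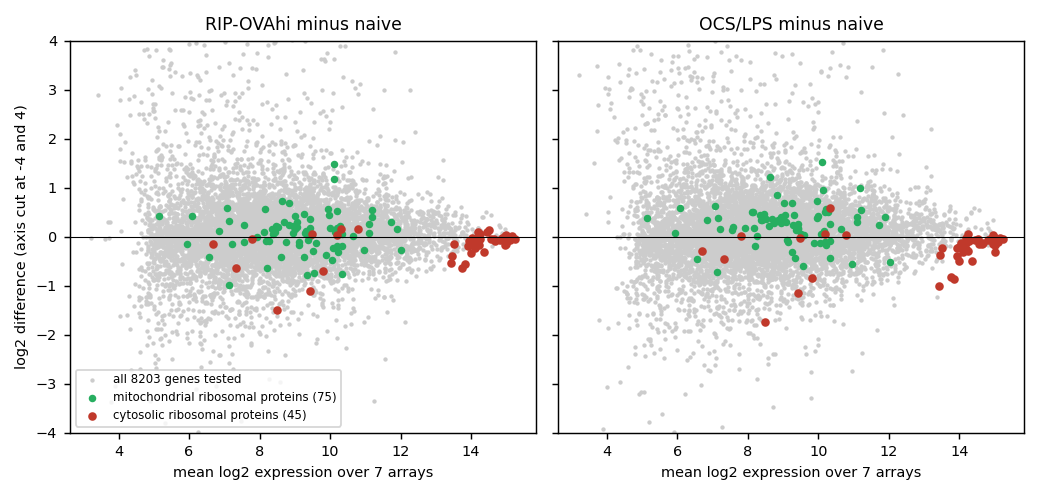
Log2 difference from naive (y axis) against mean log2 expression over the 7 arrays (x axis) for RIP-OVAhi (left) and OCS/LPS (right), with all 8203 genes tested in grey, 75 mitochondrial ribosomal proteins in green and 45 cytosolic ribosomal proteins in red; genes beyond 4 in size are outside the frame. The cytosolic members crowd at log2 14 to 15 close to the zero line, and Rpl12 is the lowest red point in both panels.

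Several genes had more than 1 probe set, 24 of the 50, and these did not always move alike. Tested one by one over all 13853 probe sets, 9 of 90 member probe sets were called lower and 2 higher in RIP-OVAhi over 7 genes (background 11.5% lower and 16.4% higher). In OCS/LPS 17 were lower and 2 higher over 12 genes (background 12.8% and 19.6%). For Rps24 all 5 tested probe sets were called lower in both groups, with differences of -0.64 to -1.80 in RIP-OVAhi and -0.81 to -1.75 in OCS/LPS. They did not move alike in Rag. The dimmest read 7.82 on the Rag array, above naive at 7.56 and 7.11, while the others differed from naive by -0.38 to -0.96. On that dimmest probe set the differences from Rag were -2.28 in RIP-OVAhi and -1.92 in OCS/LPS, both called. Rps15 was lower in OCS/LPS on both of its probe sets, -0.86 and -0.98. The second probe set of Rpl37a gave -1.65 in RIP-OVAhi (adjusted p = 0.0334) and -1.85 in OCS/LPS (adjusted p = 0.021).

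Other genes gave opposite or discordant readings. Rps3, a small subunit protein at the entry of the message channel, was flat on its brightest probe set, with differences of -0.04 in RIP-OVAhi cells and -0.15 in OCS/LPS cells. Its second probe set read 9.43 and 9.32 in RIP-OVAhi cells, 9.64 and 9.79 in OCS/LPS cells and 8.08 in Rag cells, against 8.02 and 8.55 in naive. That probe set was higher by 1.09 in RIP-OVAhi (SE 0.20, adjusted p = 0.0131) and by 1.43 in OCS/LPS (SE 0.20, adjusted p = 0.005). Rpl13a was flat on its brightest probe set, at 0.01 in RIP-OVAhi cells and -0.02 in OCS/LPS cells, and its dimmest read 13.23 and 13.16 in RIP-OVAhi cells, 13.16 and 13.21 in OCS/LPS cells and 12.57 in Rag cells, against 12.42 and 12.53 in naive. Its differences of 0.72 in RIP-OVAhi (adjusted p = 0.0102) and 0.71 in OCS/LPS (adjusted p = 0.00962) passed the test. Rpl41, which encodes a very short, basic peptide, differed by -0.02 and -0.12 in OCS/LPS on its brighter probe sets and fell by 1.32 and 1.49 on its dimmer ones (adjusted p = 0.00394 and 0.00825). A dim probe set of Rps20 was lower in RIP-OVAhi (-0.68, adjusted p = 0.0176) where the chosen one differed by -0.04. The dimmest Rpl22 probe set was lower in OCS/LPS (-0.67, adjusted p = 0.0212), where the chosen one differed by -0.05. The dimmest Rps10 probe set read 6.33 and 5.51 in RIP-OVAhi cells, 6.51 on both OCS/LPS arrays and 7.87 in Rag cells, against 7.49 and 6.56 in naive. It was lower in RIP-OVAhi than in Rag (-1.95, adjusted p = 0.0451), where the chosen one differed by 0.19, and its Rag difference from naive was 0.84 (adjusted p = 0.43), opposite in sign to the -0.49 of the chosen one. Of the 45 chosen probe sets 14 carry a suffix, _x_at or _s_at, that marks probes able to bind other transcripts, among them Rps24, Rpl37a and Rpl38 of the 8 called members. Ribosomal protein genes have many near-identical pseudogene copies, and how far these, or different transcript forms, enter each reading was not tested.

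**Figure D4:**
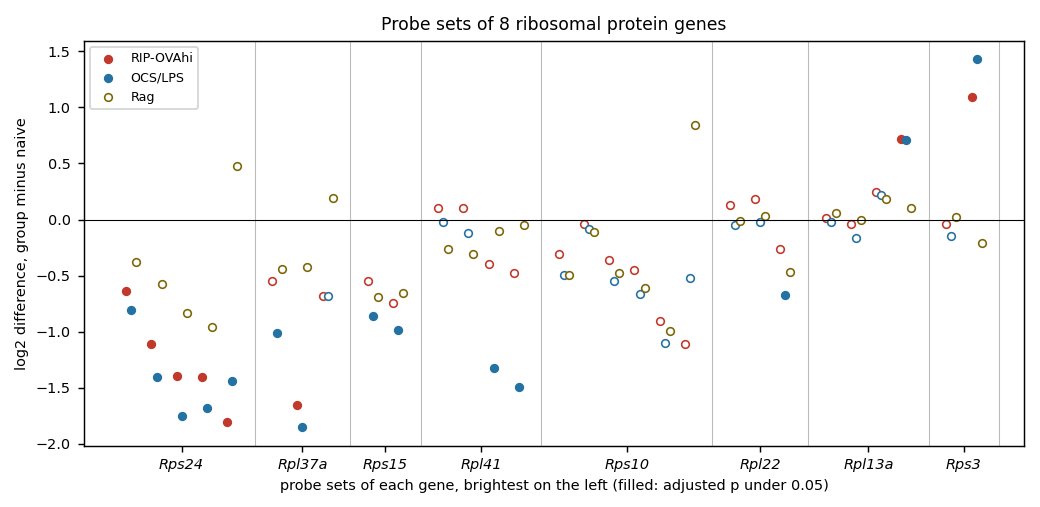
Log2 difference from naive (y axis) of every tested probe set of 8 members (x axis, brightest on the left within a gene), with RIP-OVAhi in red, OCS/LPS in blue and Rag in brown, and filled circles for adjusted p under 0.05. The 5 Rps24 probe sets lie below zero in RIP-OVAhi and OCS/LPS, while the second Rps3 probe set lies above 1 in both.

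Other parts of the translation machinery, taken from lists of known factors, moved in more than a single direction. Of 18 tested ribosomal protein chaperones and late assembly factors, which escort the proteins into the nucleus and finish the subunits, 9 fell in RIP-OVAhi (median -0.45), 4 in OCS/LPS (median -0.30) and 0 in Rag (median -0.10; 0 at an unadjusted p under 0.05), and 0 rose. These are 50%, 22.2% and 0% lower, where 11.6%, 12.3% and 0.585% of all genes were. Ltv1, a factor of small subunit export, fell by 1.17 in RIP-OVAhi (adjusted p = 0.00152) and 0.57 in OCS/LPS (adjusted p = 0.016). Tsr1, which holds the immature small subunit, fell by 1.08 in RIP-OVAhi (adjusted p = 0.00239) and 0.96 in OCS/LPS (adjusted p = 0.00318). Grwd1, the chaperone of Rpl3, fell by 1.10 in RIP-OVAhi (adjusted p = 0.0299), and Rrp12 by 0.98 (adjusted p = 0.0151). With each array left out in turn the number lower was 2 to 10 in RIP-OVAhi and 1 to 6 in OCS/LPS, fewest without an array of the group itself.

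Of 29 initiation factors, which load the small subunit on a message, 2 rose and 2 fell in RIP-OVAhi (median 0.15) and 7 rose and 2 fell in OCS/LPS (median 0.26). The shares higher, 6.9% and 24.1%, compare with 18.1% and 20.5% of all genes, and the shares lower, 6.9% in each, with 11.6% and 12.3%. Eif1ax rose by 0.74 in RIP-OVAhi (adjusted p = 0.0151) and 0.84 in OCS/LPS (adjusted p = 0.00916), and Eif3l by 0.59 in RIP-OVAhi (adjusted p = 0.0243) and 0.75 in OCS/LPS (adjusted p = 0.0104). Eif5 fell by 0.71 in RIP-OVAhi (adjusted p = 0.019) and 0.52 in OCS/LPS (adjusted p = 0.0439). With arrays left out, the number higher in OCS/LPS ran between 0 and 11. Of 7 elongation factors 0 were called in RIP-OVAhi (1 at an unadjusted p under 0.05), and in OCS/LPS Eef2k, the kinase that inhibits Eef2, fell by 1.27 (adjusted p = 0.00412). That single call is a share of 14.3% lower, where 12.3% of all genes were. Eef1a1 and Eef2 differed from naive by 0.04 and 0.17 in RIP-OVAhi and by 0.05 and 0.15 in OCS/LPS, without a call.

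Among 9 other messages with a 5' TOP element, Nap1l1, a histone chaperone, rose by 0.88 in RIP-OVAhi (adjusted p = 0.00474) and 0.84 in OCS/LPS (adjusted p = 0.00485), and the snoRNA host transcript Snhg12 fell, with differences of -1.21 in RIP-OVAhi (adjusted p = 0.00103) and -1.70 in OCS/LPS (adjusted p = 0.000233). These were the calls of the list, 11.1% higher and 11.1% lower in each group. Of all genes 18.1% and 20.5% were higher and 11.6% and 12.3% lower. In RIP-OVAhi Tpt1 differed by -0.11, Npm1 by -0.07 and Pabpc1 by 0.13, and in OCS/LPS they differed by -0.17, -0.06 and 0.04, without a call. Of 15 tested genes of mTORC1 and its control of TOP messages, Sesn1, a stress-induced inhibitor of mTORC1, fell by 0.66 in RIP-OVAhi (adjusted p = 0.0105) and 0.65 in OCS/LPS (adjusted p = 0.0103). Ddit4, another inhibitor, rose by 0.74 in RIP-OVAhi (adjusted p = 0.027). In OCS/LPS Rragc, a GTPase that signals amino acids to mTORC1, rose by 0.58 (adjusted p = 0.015), and Tsc1 fell by 0.54 (adjusted p = 0.0472). Mtor and Larp1 differed from naive by 0.03 and -0.33 in RIP-OVAhi and by -0.05 and 0.03 in OCS/LPS, without a call. These 5 calls, 1 higher and 1 lower in RIP-OVAhi and 1 higher and 2 lower in OCS/LPS, are shares of 6.67% to 13.3%, below or near those of all genes. With each array left out in turn the number in RIP-OVAhi ran between 0 and 5 higher and between 0 and 3 lower, and in OCS/LPS between 0 and 3 higher and between 0 and 2 lower. Against Rag, 1 of these 15 genes was higher and 2 lower in RIP-OVAhi (6.67% and 13.3%), where 9.84% and 6.9% of all genes were. In OCS/LPS 1 was higher and 1 lower (6.67% each), where 11.2% and 6.9% of all genes were. These calls rest on the single Rag array. With arrays left out in turn, the OCS/LPS call higher and all calls lower were lost in some runs. Ddit4 was higher than in Rag by 1.86 in RIP-OVAhi (adjusted p = 0.00456) and 1.42 in OCS/LPS (adjusted p = 0.011). Rptor, the mTORC1 subunit that binds its substrates, differed from Rag by -0.73 in RIP-OVAhi (adjusted p = 0.0409) and -0.80 in OCS/LPS (adjusted p = 0.0305), and Larp1 by -1.01 in RIP-OVAhi (SE 0.18, adjusted p = 0.0161).

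The mitochondrial ribosomal proteins, which build the ribosomes inside mitochondria, had medians above zero in the antigen-driven groups. Of 75 tested, 4 rose and 2 fell in RIP-OVAhi (median 0.10), 8 rose and 2 fell in OCS/LPS (median 0.28), and 0 were called in Rag (median -0.14; 1 at an unadjusted p under 0.05). The shares higher, 5.33% in RIP-OVAhi and 10.7% in OCS/LPS, lie below the 18.1% and 20.5% of all genes. These values rest on which naive array is used, since the median over the 75 genes was 8.77 on naive array 1 and 9.46 on naive array 2. With arrays left out the median ran from -0.21 to 0.39 in RIP-OVAhi and from -0.02 to 0.53 in OCS/LPS, the number higher between 0 and 33 and between 2 and 49, and the number lower between 0 and 20 and between 0 and 14. Over the 45 cytosolic members the array medians were 14.19 and 14.20 in RIP-OVAhi cells, 14.12 and 13.98 in OCS/LPS cells and 14.10 in Rag cells, against 14.22 and 14.33 in naive. The difference between the lists was not tested.

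**Figure D5:**
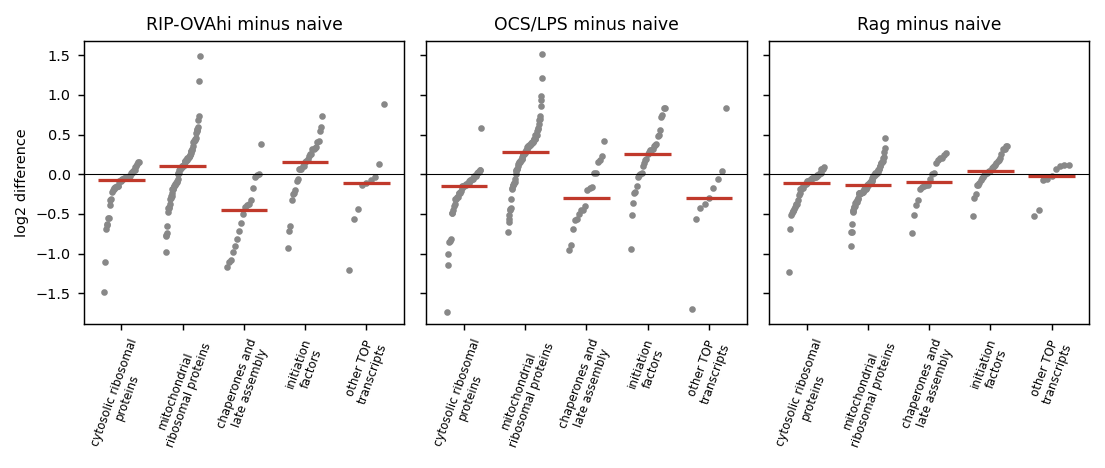
Log2 difference from naive (y axis) of the tested genes of 5 lists (grey points, with the list median as a red line) in RIP-OVAhi, OCS/LPS and Rag. The median of the cytosolic members lies at -0.07, -0.15 and -0.11, and the chaperone and assembly list lies at -0.45, -0.30 and -0.10.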

How the data were processed

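The deposited table gives 45101 probe sets on 7 arrays in log2 units, which per the submitters' processing notes the authors obtained with GCRMA, and it was used as it stands. Each array started from 100 ng of total RNA, amplified in 2 rounds, per the labels' protocols. Genes were named from the platform annotation, where 34958 probe sets had 1 symbol, 932 several and 9211 none. Only the first kind was used, and 34754 of these matched RefSeq genes of GRCm38.p6. Of 89 RefSeq protein-coding genes that meet the naming rule, 40 had no such probe set, and 31 of those stood in probe sets with several symbols, which were not analysed here.

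Genes with log2 5 or more on at least 2 arrays entered 1 linear model of all arrays (limma 3.58.1, R 4.3.3), in which each group had its own mean, with 3 residual and 2.93 prior degrees of freedom and 0.156 as the prior SD. Two-sided p-values were adjusted after Benjamini and Hochberg over all genes tested. SE is the moderated standard error. The procedure was tested on simulated data. Whether arrays of a group stem from separate experiments is not in the labels, so the p-values reflect no more than the spread among these arrays, in part perhaps technical. The number of arrays limits the precision, above all for Rag.

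Named members were the called ones, up to 8 per direction and comparison, the 4 with the largest difference where fewer than 4 were called, the 5 with the largest and the 5 with the smallest range, members whose probe sets disagree, and set members of known role. Of other lists, up to 4 called genes and set genes of known role could be named. The members, lists and tests were chosen with earlier results of these data known. Alternatives were centred arrays, no filter or log2 7, a trended prior, the replicate number as a block, the mean of a gene's probe sets, no _x_at or _s_at probe sets, 2 groups alone, each array left out and, added after seeing the data, every probe set tested by itself. Promoters were searched with Python 3.11.15, and figures drawn with matplotlib 3.10.9.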

Additional observations from a re-analysis of the deposited data

Results flagged for a closer look

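Rpl22 moved one way from naive on both RIP-OVAhi arrays (14.58 and 14.65) and the other way on both OCS/LPS arrays (14.47 and 14.42), against naive arrays of 14.50 and 14.48. The groups differed by 0.17, which did not pass the limma test, so the difference is not shown. The other Rpl22 probe sets did not have this pattern, since on one both groups lay below naive (-0.26 and -0.67) and on the other the OCS/LPS arrays (14.03 and 13.96) lay on either side of both naive arrays. Rps25 differed from naive in the antigen-driven groups otherwise than in Rag cells, and the difference between the effects equals that between the groups, -0.62 for RIP-OVAhi against Rag and -0.77 for OCS/LPS against Rag. Both passed the test by a small margin and were lost when any single RIP-OVAhi or OCS/LPS array was left out. For Rpl12 the same holds for OCS/LPS against Rag, at -1.33, a call lost in the same way. Rag is a single array of cells taken at 5 days, so time, division history and that array cannot be told apart.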

How the results depend on the processing

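The members called against naive were 4 in RIP-OVAhi and 7 in OCS/LPS, against Rag 1 and 2, and these counts rest on small margins. The RIP-OVAhi count was 2 with no filter, 2 with only the 2 groups, and 7 both with the mean of a gene's probe sets (1 of them higher) and with every probe set tested by itself. The OCS/LPS count was 4 with only the 2 groups, and 12 both with the mean of probe sets (1 higher) and with every probe set tested. In the main model the calls over all genes were 1481 higher and 948 lower in RIP-OVAhi and 1685 and 1013 in OCS/LPS. With only the 2 groups they numbered 1601 and 1802 in all, and with the mean of probe sets 2328 and 2714. With every probe set tested, Rps3 and Rpl13a were called higher in both groups and the other genes lower. The call of Rpl22l1 in RIP-OVAhi was then lost (adjusted p = 0.0618 in limma), as was that of Rpl19 in OCS/LPS (adjusted p = 0.0556). The 15 alternatives counted for single members do not include this run. The OCS/LPS median difference, -0.15, became -0.22 with the mean of probe sets. Against Rag, the RIP-OVAhi count was 0 after centring, 2 without _x_at and _s_at probe sets, 3 with the mean of probe sets and 4 with every probe set tested. Those 4 were Rps3 and Rpl13a, called higher, and Rps10 and Rps24, called lower, while the call of Rps25 was lost. The OCS/LPS count against Rag was 1 with no filter, 4 both with the mean of probe sets and without _x_at and _s_at probe sets, and 6 with every probe set tested. With only the 2 groups, 2 arrays against 1, no gene at all was called in either comparison with Rag. With the replicate number as a replicate block the counts were 3 and 6 against naive and 0 and 0 against Rag. The calls lost were Rpl22l1 in RIP-OVAhi and Rpl19 in OCS/LPS against naive, and both of Rps25 and that of Rpl12 against Rag. The labels do not say that equal numbers mark a shared batch. The deviations of same-numbered arrays correlated over all genes at 0.35 for RIP-OVAhi with naive, 0.13 for OCS/LPS with naive and 0.32 for RIP-OVAhi with OCS/LPS. Rps3 turned from lower to higher with the mean of probe sets, to 0.52 in RIP-OVAhi and 0.64 in OCS/LPS against naive and to 0.62 and 0.73 against Rag, since that mean takes in its second probe set. With each array left out in turn, the members called ran from 0 to 10 for RIP-OVAhi against naive, 1 to 14 for OCS/LPS against naive, 0 to 8 for Rag against naive, 0 to 0 for RIP-OVAhi against OCS/LPS, 0 to 4 for RIP-OVAhi against Rag and 0 to 6 for OCS/LPS against Rag. In the same order the medians ran from -0.11 to -0.05, -0.20 to -0.12, -0.14 to -0.08, 0.02 to 0.12, -0.01 to 0 and -0.11 to -0.04. Leaving out an array also leaves fewer residual degrees of freedom. The calls over all genes changed widely over these runs as well, so the ranges do not set the members apart from other genes. For single members, 1570 values kept their direction and side of the threshold, 64 lost a call, 20 gained one and 4 reversed. Most of the 1570 belong to members that were not called and had no call to lose, so they do not measure how steady the calls were. The 64 losses fall on the called members, whose calls each held under 7 to 15 of 14 or 15 alternatives. The other causes were not tested.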
